A study of Mus musculus with 10 samples.

Results

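Trophectoderm genes are described here in sorted mouse embryonic stem (ES) cells, line E14Tg2a.4, as the 8 genes Tfap2c, Tead4, Cdx2, Eomes, Elf5, Krt8, Krt18 and Krt19, chosen by symbol among 32361 rows of the deposited expression table. Each of the 8 had 1 row. A reporter line with knock-ins at both Esrrb and Tbx3 was sorted into 3 fractions, called DN (Esrrb-Negative Tbx3-Negative, Esrrb-/Tbx3- in the plots), SP (Esrrb-Positive Tbx3-Negative, Esrrb+/Tbx3-) and DP (Esrrb-Positive Tbx3-Positive, Esrrb+/Tbx3+). A separate line gave Zscan4c-Positive and Zscan4c-Negative fractions (Zscan4+ and Zscan4- in the plots) by a piggyBac reporter that follows a Zscan4c promoter fragment and not the locus itself. The labels list 2 libraries per fraction, 10 in all, but the table holds 1 FPKM value per gene and fraction (fragment density per kilobase, scaled for library size in a way that the sources used here do not give). No value below therefore has an SD or a p-value, no difference has a replicate check, and read depth is unknown.

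The trophectoderm is the outer epithelium of the blastocyst and founds the placenta. In the mouse embryo the TEAD factor TEAD4, with the Hippo pathway coactivators YAP and TAZ, acts upstream of the homeobox factor CDX2 in outer cells, while TFAP2C (AP-2 gamma), EOMES and ELF5 belong to the network that trophoblast stem cells use. Keratins 8, 18 and 19 form the intermediate filaments of that epithelium, each filament pairing a type I with a type II keratin. ES cells derive from the inner cell mass, where POU5F1 opposes CDX2, and Tfap2c and Krt18 are also known outside the trophoblast lineage.

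The 8 genes fell far apart in level. Tfap2c reached 56.4 FPKM at its highest, Krt18 10.2, Tead4 7.72, Krt19 6.24, Krt8 2.96 and Eomes 1.89 FPKM. Cdx2 stayed at or below 0.380 FPKM and Elf5 at or below 0.0423 FPKM in every fraction. Summed over the 8 genes, the level was 29.1 FPKM in the DN, 62.6 in the SP, 75.4 in the DP, 55.8 in the Zscan4-positive and 61.3 in the Zscan4-negative fraction. Tfap2c made up 73.9% to 78.0% of that sum in the 4 fractions besides DN and 23.5% in DN cells. Differences below are differences of log2(FPKM + 1), which understate those of low genes, and "higher" or "lower" is used of a gene for a difference of at least 2-fold on that scale. Only rows with at least 1 FPKM in some fraction were compared, 13595 in all, and 6 of the 8 genes passed this minimum, Cdx2 and Elf5 not.

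**Figure D1:**
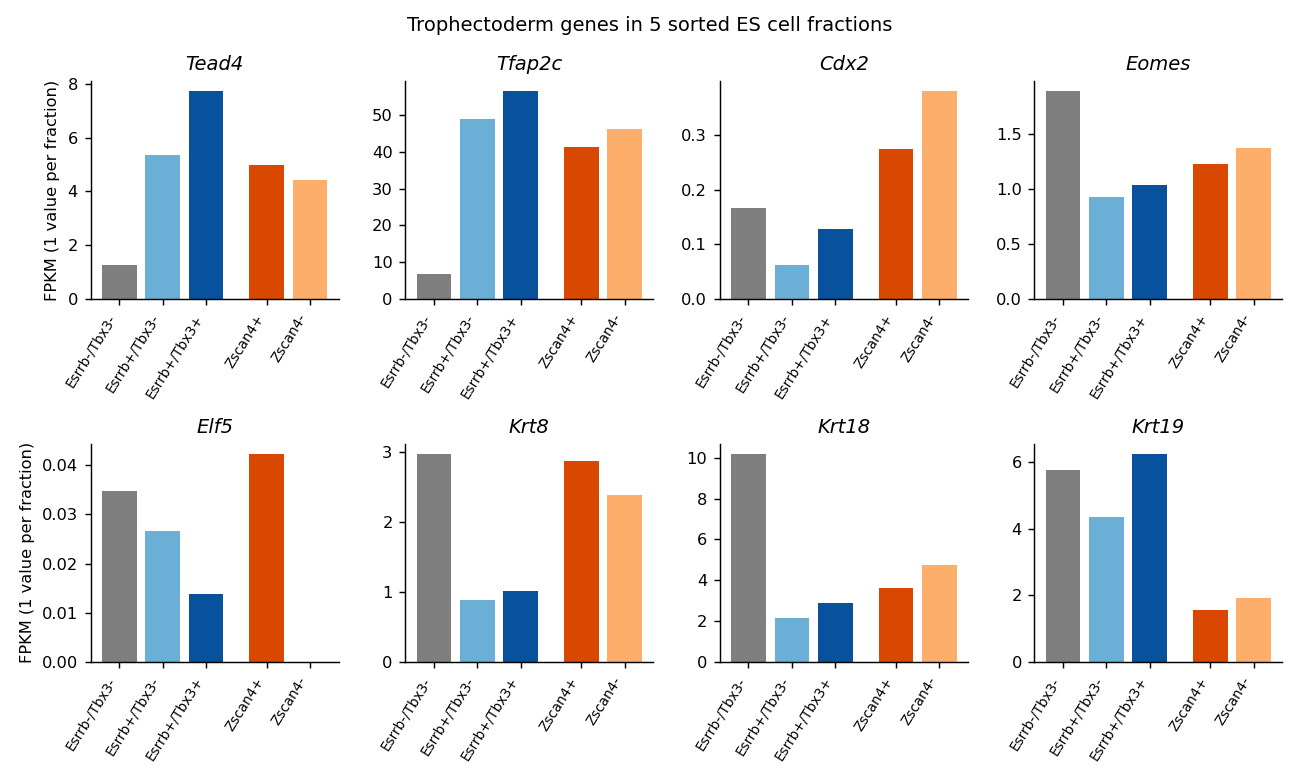
FPKM of each of the 8 genes in the 5 sorted fractions, 1 bar per deposited value, without error bars because 1 value exists per fraction; the vertical scale differs between panels. Tfap2c and Tead4 are lowest in DN cells, Krt18 and Eomes are highest there, Krt19 is lowest in both Zscan4 fractions, and Cdx2 and Elf5 stay under 1 FPKM.

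Markers of other cell types differed between the columns. The summed level of 15 fibroblast markers was 2416 FPKM in DN and 1739 in SP cells, and 137 to 163 FPKM in the other 3 fractions. That of 13 T-lineage markers was 603 FPKM in DN and 430 in SP cells, and 26.2 to 39.1 FPKM in the other 3. A set of 484 rows with at least 1 FPKM in DN cells was chosen to follow the same course. Each had at most 0.1 of the DN level in the DP and both Zscan4 fractions and an SP to DN ratio of 0.5 to 1. Within those limits the median SP to DN ratio was 0.701 (middle 95%, 0.565 to 0.865). The set holds 10 of the 15 fibroblast and 5 of the 13 T-lineage markers. Of 12755 rows with at least 1 FPKM in DN cells and above 0 in SP and DP cells, 468 belong to it. Not every marker took this course: Cd2 was at 4.49, 5.15 and 3.36 FPKM in DN, SP and DP cells. None of the 8 genes is among the 484 rows, which for Cdx2 and Elf5, below 1 FPKM in DN cells, was fixed by the choice. As the set holds few of all rows, the absence of the other 6 says little about them. In sorted bulk RNA, fewer expressing cells and less RNA per cell cannot be told apart.

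Of the upstream factors, Tfap2c was much higher once the Esrrb reporter was on. Tfap2c, an AP-2 transcription factor gene (mm10, chromosome 2, 172549593 to 172558621, plus strand), was at 6.84 FPKM in DN, 48.8 in SP and 56.4 in DP cells, and at 41.2 FPKM in Zscan4-positive and 46.0 in Zscan4-negative cells. The DN fraction stood alone at the low end, and the other 4 lay within a narrow band. SP exceeded DN cells 7.14-fold in FPKM, a log2 difference of 2.67 that ranked 18th of the 13595 rows. Within the compared rows of each column, Tfap2c lay above 81.3% to 86.3% of rows in the 4 fractions besides DN and above 37.0% in DN cells. It was the predominant AP-2 gene: Tfap2a did not exceed 0.726 FPKM, and Tfap2c held 98.3% to 98.9% of the summed level of the 5 AP-2 genes in the other 4 fractions and 86.0% in DN cells.

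Tead4 took the same direction at a lower level. Tead4 (mm10, chromosome 6, 128227143 to 128300813, minus strand) was at 1.25 FPKM in DN, 5.34 in SP and 7.72 in DP cells, and at 4.98 FPKM in Zscan4-positive and 4.43 in Zscan4-negative cells. Again the DN fraction was lowest and the DP highest. The log2 difference was 1.49 between SP and DN cells, 85th from the top, and 1.95 between DP and DN cells. Its relatives stayed within 2-fold over the Esrrb step. Tead2 was at 48.1 to 60.0 FPKM over the 3 Esrrb/Tbx3 fractions and Tead1 at 14.1 to 20.0 FPKM, so Tead4 made up 9.33% of the TEAD sum in DP and 1.56% in DN cells. Tead3 was at 2.22 FPKM in SP against 4.72 in DN cells, within 2-fold on the log2(FPKM + 1) scale.

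The lineage factors were near the floor. Cdx2, the homeobox gene of trophectoderm fate (mm10, chromosome 5, 147300900 to 147307249, minus strand), was at 0.167 FPKM in DN, 0.0616 in SP and 0.128 in DP cells, and at 0.274 in Zscan4-positive and 0.380 in Zscan4-negative cells. Its highest value lay above those of 6.67% of the compared rows in that column. Elf5, an ETS factor gene of trophoblast stem cells (mm10, chromosome 2, 103412098 to 103450988, plus strand), had 0.0347 FPKM in DN, 0.0267 in SP and 0.0139 in DP cells. It was at 0.0423 FPKM in Zscan4-positive cells and is listed at 0 in Zscan4-negative cells. Levels this low carry no order that could be read without replicates. Pou5f1, whose product opposes CDX2, was at 1987 FPKM or more in all 5 fractions.

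The bases just before the Cdx2 start are shown because they hold the octamer ATGCAAAT, the motif of POU factors. Of 5 motifs searched on both strands (TATAAA, the TEAD motif GGAATG, the AP-2 motif GCCNNNGGC, ATGCAAAT and the ESRRB motif AAGGTCA), it was the only match in this window, and it is in capitals. Of 32851 RefSeq promoter windows cut to the same 229 bases, 1.53% hold it. A match is a description of letters and no evidence of binding. The stretch (RefSeq, GRCm38.p6, chr5:147307271-147307499, minus strand) ends before the gene start in both RefSeq and GENCODE M21.
Cdx2: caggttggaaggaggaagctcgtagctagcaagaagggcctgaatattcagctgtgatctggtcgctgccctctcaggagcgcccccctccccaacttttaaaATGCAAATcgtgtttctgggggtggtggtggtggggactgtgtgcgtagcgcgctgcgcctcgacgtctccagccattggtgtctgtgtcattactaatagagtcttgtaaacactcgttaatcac

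Eomes, a T-box gene used both in trophoblast stem cells and in the primitive streak (mm10, chromosome 9, 118478189 to 118486132, plus strand), was low but above the minimum. It was at 1.89 FPKM in DN, 0.927 in SP and 1.04 in DP cells, and at 1.23 FPKM in Zscan4-positive and 1.37 in Zscan4-negative cells. The DN fraction was highest. The difference of SP from DN cells was -0.58, short of 2-fold, although the plain FPKM ratio was 0.491.

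Among the structural genes, Krt8 and Krt18 were both highest in DN cells, opposite to Tfap2c and Tead4. Krt18, a type I keratin gene (mm10, chromosome 15, 102028216 to 102032026, plus strand), was at 10.2 FPKM in DN, 2.16 in SP and 2.87 in DP cells, and at 3.64 FPKM in Zscan4-positive and 4.73 in Zscan4-negative cells. SP cells differed from DN cells by -1.82, the 41st most negative of the 13595 rows. Krt8, its type II partner (mm10, chromosome 15, 101996711 to 102004342, minus strand), was at 2.96, 0.887 and 1.01 FPKM in the DN, SP and DP fractions, and at 2.87 FPKM in Zscan4-positive and 2.38 in Zscan4-negative cells. Krt8 was thus about as high in both Zscan4 fractions as in DN cells, whereas Krt18 was not. The SP to DN ratio was 0.212 for Krt18 and 0.300 for Krt8, and the DP to DN ratio was 0.281 and 0.343. These lie outside the limits by which the 484 rows were chosen (0.5 to 1 and at most 0.1). Their distance from those rows was thus fixed by that choice. The part of the fibroblast and T-lineage markers in these differences was not tested. Leaving the DN column aside, DP cells differed from Zscan4-negative cells by -0.57 in Krt18 and by -0.74 in Krt8, both within 2-fold, with Krt8 below the middle 95% of all rows (-0.63 to 0.69). The gene name table lists 1 pseudogene of Krt8, and how reads shared with such copies were handled is not given in the sources used here, so the keratin levels are uncertain to that extent.

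**Figure D2:**
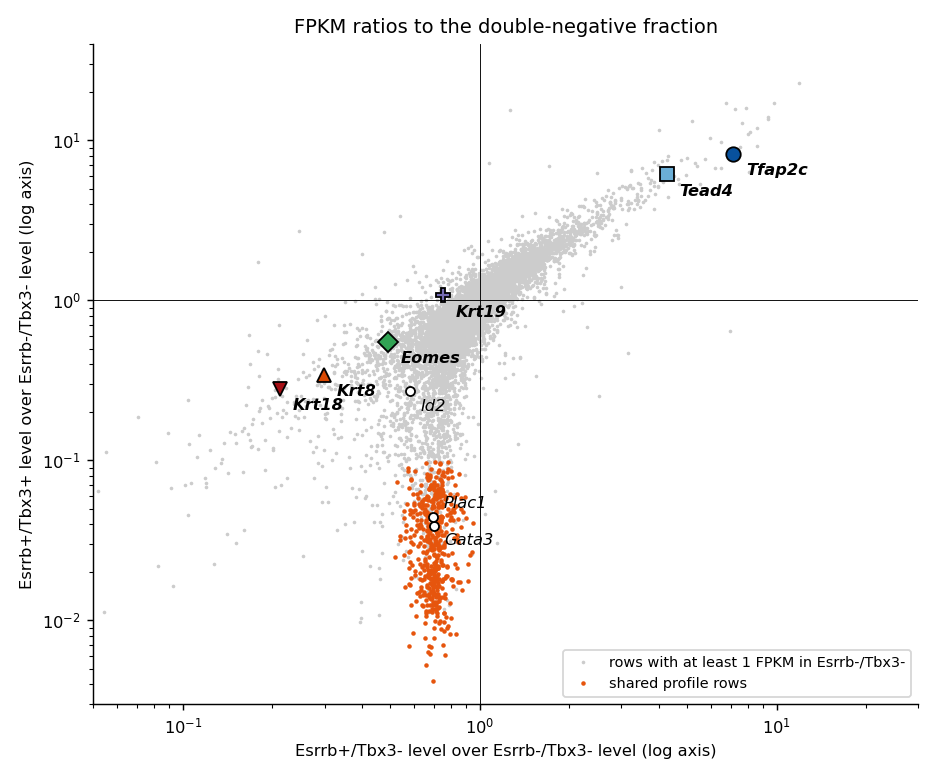
Each point is a row with at least 1 FPKM in DN cells; the horizontal log axis gives the SP level and the vertical log axis the DP level, both divided by the DN level, and 6 of 12755 rows lie outside the axes. Orange points are rows of the shared set of 484 that are above 0 in both columns (468 drawn). The limits of the orange column, an SP to DN ratio of 0.5 to 1 and a DP to DN ratio of at most 0.1, were set by the choice of those rows. Krt18 and Krt8 lie left of the orange column and above it, Tfap2c and Tead4 lie at the upper right, and Gata3 and Plac1, open circles, lie inside it.

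The start sites of Krt8 and Krt18 lie 23.9 kb apart on opposite strands, pointing away from each other. Sequence before both starts is shown because these neighbours were the keratins that were lower together. Of the same 5 motifs, the Krt18 stretch holds a single AP-2 match, in capitals, 83 bases before the start of the deposited row, and 11.5% of all promoter windows of the same 214 bases hold that motif. The Krt8 stretch of 110 bases holds none of the 5, which says only that these letters are not in this window. Both are from RefSeq (GRCm38.p6), at chr15:102004483-102004592 on the minus strand for Krt8 and chr15:102027966-102028179 on the plus strand for Krt18, cut to end before the start in both annotations.
Krt8: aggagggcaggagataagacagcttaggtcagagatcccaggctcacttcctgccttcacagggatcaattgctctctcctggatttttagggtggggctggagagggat
Krt18: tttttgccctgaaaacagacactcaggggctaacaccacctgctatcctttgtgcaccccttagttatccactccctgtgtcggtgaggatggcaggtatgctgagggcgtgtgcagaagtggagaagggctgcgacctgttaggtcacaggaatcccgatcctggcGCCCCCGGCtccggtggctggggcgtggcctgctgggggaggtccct

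Krt19 followed neither pattern and differed between the reporter lines instead. Krt19, a type I keratin gene (mm10, chromosome 11, 100140811 to 100145919, minus strand), was at 5.78 FPKM in DN, 4.36 in SP and 6.24 in DP cells, and at 1.54 FPKM in Zscan4-positive and 1.93 in Zscan4-negative cells. All 3 Esrrb/Tbx3 fractions were above both Zscan4 fractions. The SP to DN ratio of 0.754 lies within the range of the 484 rows, but Krt19 was not low in DP cells, at 1.08 of the DN level. DP cells exceeded Zscan4-negative cells by 1.30, the 38th largest of the 13595 differences between these fractions. It was the 1 gene of 6 that was higher, where 0.743% of all rows were, and none was lower, where 0.816% were. Line, reporter and sort gate cannot be told apart in that comparison, which was added after the values were seen.

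Other keratin genes showed that the course of Krt8 and Krt18 was not general to keratins. Of 46 rows named Krt and a number, 8 reached 1 FPKM in some fraction, 6 of type I and 2 of type II. Krt42, a type I keratin gene 117 kb beyond Krt19 on chromosome 11, was at 6.16 FPKM in DN, 35.2 in SP and 47.0 in DP cells, and at 19.3 FPKM in Zscan4-positive and 24.4 in Zscan4-negative cells. Its difference between SP and DN cells was 2.34, in the direction of Tfap2c. Krt17, next to it, was at 8.01, 14.9 and 15.7 FPKM in the DN, SP and DP fractions, within 2-fold. Both are also more abundant than Krt18 in every fraction but DN. Summed over the 8 compared rows, type I exceeded type II levels 10.8 times in DN, 64.9 times in SP and 56.4 times in DP cells, and 6.31 times in Zscan4-positive and 16.6 times in Zscan4-negative cells. Over all 46 rows the ratios were 7.73, 34.4 and 40.5 in the DN, SP and DP fractions, so the order of SP and DP depends on the rows summed. The Krt18 to Krt8 ratio was 3.44, 2.43 and 2.82 in the 3 Esrrb/Tbx3 fractions, and 1.27 in Zscan4-positive and 1.99 in Zscan4-negative cells. Krt79, a type II keratin gene, was at 2.35 FPKM in Zscan4-positive against 0.0594 in Zscan4-negative cells.

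**Figure D3:**
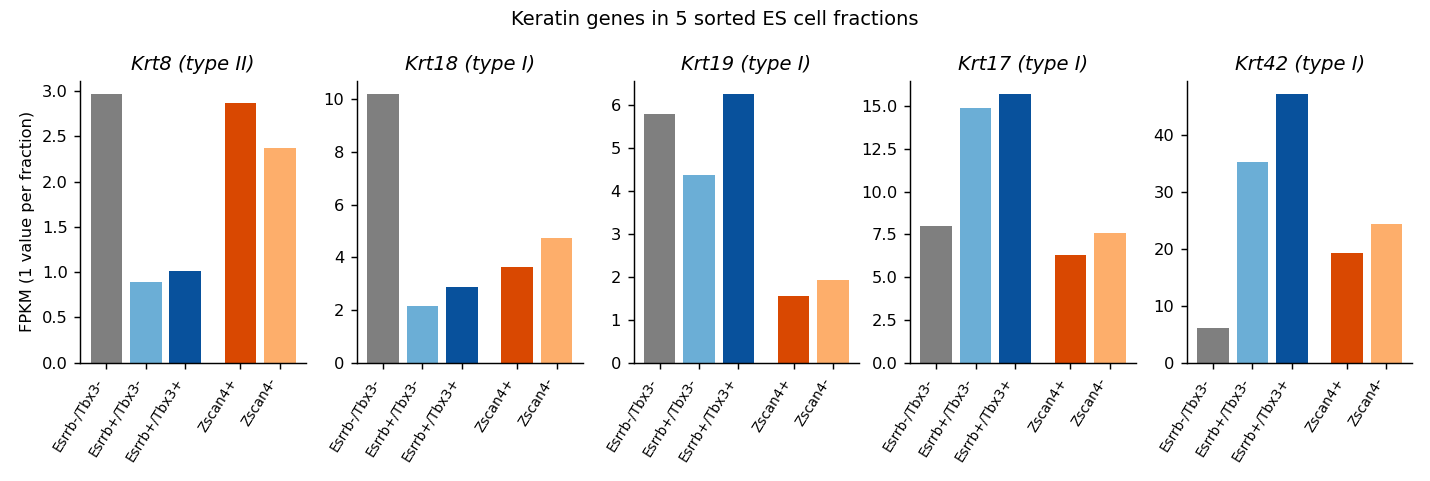
FPKM of 5 keratin genes in the 5 sorted fractions, 1 bar per deposited value without error bars; the vertical scale differs between panels. Krt8 and Krt18 are highest in DN cells, Krt42 is lowest there at 6.16 FPKM, and Krt19 is lowest in both Zscan4 fractions.

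Set against all rows, the Esrrb step (SP minus DN cells) had 2 of the 6 compared genes higher, Tfap2c and Tead4, where 1.82% of all rows were higher, and 2 lower, Krt18 and Krt8, where 1.43% were lower. Krt8, at -1.07, lay just past the size rule. The median of the 6 was -0.46, beside -0.02 over all rows, and describes none of them, since the genes split into opposite directions. The Tbx3 step (DP minus SP cells) had none of the 6 past 2-fold in either direction, where 0.346% of rows were higher and 6.94% lower. All 6 differences were positive there, between 0.08 for Eomes and 0.46 for Tead4, with a median of 0.25 beside 0.01 over all rows. DP against DN cells had 2 higher, again Tfap2c (2.87) and Tead4, where 3.81% of rows were, and 1 lower, Krt18 (-1.53), where 12.2% were. Krt8 reached -0.98, and the median was -0.20 beside -0.02. These 3 comparisons share columns and are not independent of each other.

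Zscan4-positive and Zscan4-negative cells differed little in these genes. None of the 6 was at least 2-fold higher, where 3.46% of rows were, or lower, where 0.875% were, and the differences ran from -0.30 for Krt18 to 0.20 for Krt8, with a median of -0.12 beside -0.01 over all rows. In the same comparison 7 of 7 compared markers of the 2-cell-like state were higher, with Zscan4c at 120 against 0.255 FPKM. All 7 passed the minimum of 1 FPKM only through the Zscan4-positive column, so that count was largely fixed in advance. The 6 compared trophectoderm genes thus stayed within 2-fold between columns that differed strongly in Zscan4 transcripts.

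**Figure D4:**
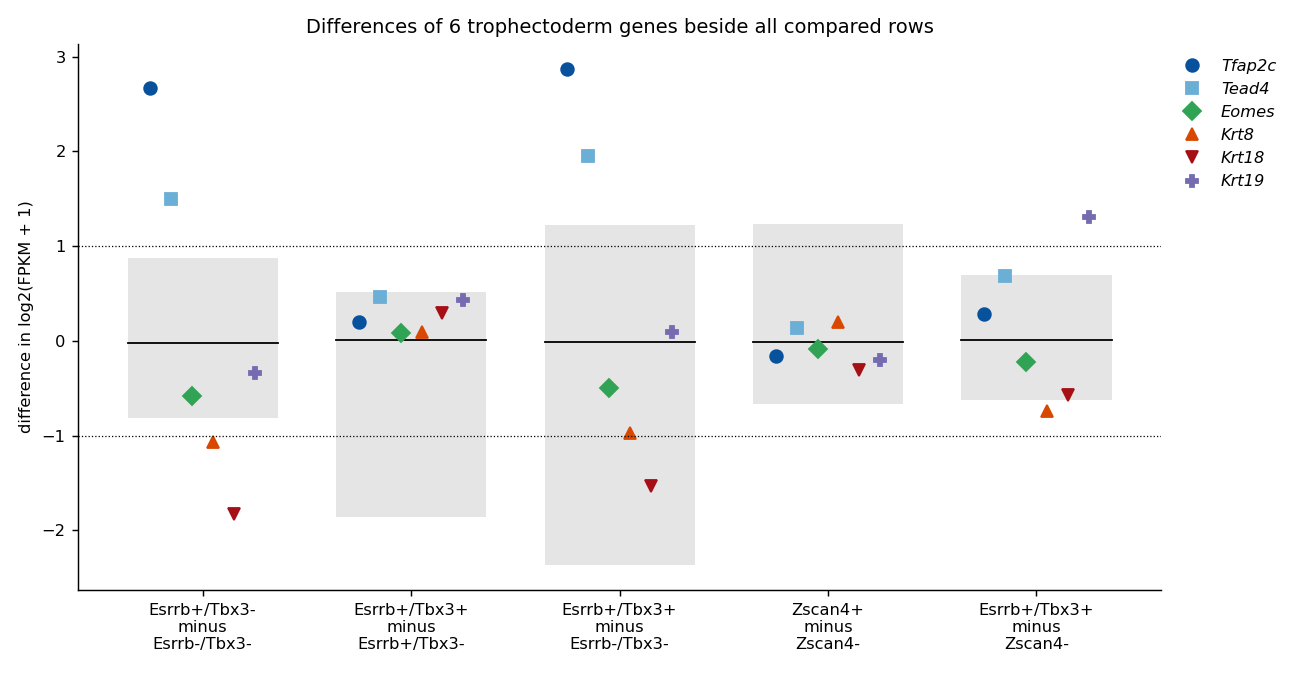
Differences in log2(FPKM + 1) of the 6 compared genes in 5 comparisons, with the middle 95% of all 13595 rows as grey boxes, their median as a black line and 2-fold as dotted lines. Tfap2c and Tead4 lie above the box and Krt18 and Krt8 below it in the first comparison, no gene is past 2-fold in the Tbx3 step or the Zscan4 sort, and between the reporter lines Krt19 lies above the box and Krt8, at -0.74, below it.

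Further trophoblast genes, 18 in all, were mostly low: 9 reached 1 FPKM in some fraction. In the Esrrb step 1 of these 9 was higher and none lower (1.82% and 1.43% of all rows), namely the FGF receptor gene Fgfr2, at 15.6 FPKM in SP against 6.87 in DN cells, with a list median of 0.07 beside -0.02. In the Tbx3 step none was higher and 3 were lower (0.346% and 6.94% of all rows), with a median of -0.18 beside 0.01. Gata3, a trophectoderm factor gene, was at 0.251 FPKM in DP against 4.49 in SP cells, Plac1 at 0.110 against 1.73 FPKM and Id2, a helix-loop-helix inhibitor gene, at 11.2 against 24.0 FPKM. Gata3 and Plac1 belong to the 484 rows, as do 10 of the 15 fibroblast and 5 of the 13 T-lineage markers. Id2 does not: its SP to DN ratio of 0.580 lies within their range, but it was at 1.05 of the DN level in Zscan4-positive and 0.606 in Zscan4-negative cells. It was also lower in DP than in Zscan4-negative cells, by -1.10, as 1 of the 9, where 0.816% of all rows were lower. Line, reporter and sort gate cannot be told apart in that comparison, which was added after the values were seen. The part of the fibroblast and T-lineage markers in the differences of Gata3, Plac1 and Id2 was not tested. The same 3 genes were lower in DP than in DN cells, where 12.2% of all rows were. None of the 9 was higher or lower in the Zscan4 sort (3.46% and 0.875% of all rows). Among markers of differentiated trophoblast, Prl3d1 is listed at 0 in every fraction, Tpbpa was at most at 0.0221 FPKM, and the giant cell factor gene Hand1 and the syncytiotrophoblast factor gene Gcm1 were at most at 0.301 and 0.550 FPKM. Ascl2, a factor gene of the spongiotrophoblast, was above 1 FPKM throughout, at 2.21 FPKM in DN, 1.45 in SP and 2.24 in DP cells, and at 3.29 FPKM in Zscan4-positive and 1.47 in Zscan4-negative cells.

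Genes of the Hippo pathway, which sets the activity of TEAD factors, had 19 of 20 listed symbols in the table and all 19 compared. In the Esrrb step 1 was higher and none lower (1.82% and 1.43% of all rows), with a median of -0.23 beside -0.02: Nf2, an upstream activator of Hippo kinases, was at 105 FPKM in SP against 48.6 in DN cells. The coactivator gene Yap1 was steady at 53.3, 56.3 and 60.8 FPKM from DN to DP cells. In the Tbx3 step none was higher and 3 were lower (0.346% and 6.94% of all rows), with a median of -0.19 beside 0.01. They were the TEAD target genes Cyr61 and Ankrd1, at 4.38 and 0.0124 FPKM in DP against 30.1 and 1.25 FPKM in SP cells, and Vgll4, whose product competes with YAP for TEAD proteins, at 2.83 against 11.6 FPKM. Ankrd1 is among the 484 rows, and the SP to DN ratio of Cyr61 was 0.611, within their middle 95%, while that of Vgll4 was 0.876, just above it. The part of the fibroblast and T-lineage markers in the differences of these 3 genes was not tested. Ctgf, also a TEAD target, was at 25.0 FPKM in DP and 24.0 in SP cells. In DP against DN cells 1 of the 19, Nf2, was higher and the same 3 were lower (3.81% and 12.2% of all rows), with a median of -0.54 beside -0.02. Cyr61 was also lower in DP than in Zscan4-negative cells, by -1.20, as 1 of the 19, where 0.816% of all rows were lower. Line, reporter and sort gate cannot be told apart there, and that comparison was added after the values were seen. None of the 19 was higher or lower in the Zscan4 sort (3.46% and 0.875% of all rows).

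Epithelial junction and pump genes, which the trophectoderm uses to seal and fill the blastocyst, were all 18 expressed. In the Esrrb step 1 was higher and 2 were lower (1.82% and 1.43% of all rows), with a median of -0.04 beside -0.02. The water channel gene Aqp3 was at 33.8 FPKM in SP against 13.7 in DN cells, while the tight junction genes Ocln, at 1.04 against 3.16 FPKM, and Cldn7, at 4.83 against 10.7 FPKM, were lower, as Krt8 and Krt18 were. In the Tbx3 step 1 was higher and none lower (0.346% and 6.94% of all rows), with a median of 0.17 beside 0.01. That gene was Aqp3, at 85.1 FPKM in DP against 33.8 in SP cells. DP against DN cells had 3 higher and none lower (3.81% and 12.2% of all rows), Aqp3 (2.55), the claudin gene Cldn4 (1.28) and the sodium pump subunit gene Atp1b1 (1.03). In the Zscan4 sort 1 was higher and 1 lower (3.46% and 0.875% of all rows), Aqp3 at 125 FPKM in Zscan4-positive against 43.6 in Zscan4-negative cells and Cldn7 at 3.14 against 7.49 FPKM. Cdh1, the E-cadherin gene, was at 109 to 127 FPKM in all fractions.

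Factors of the inner cell mass were read for comparison. Of 6, Esrrb, which was sorted on, and Nanog were higher in the Esrrb step (1.82% of all rows), with a median of 0.74 beside -0.02. In DP against DN cells 4 were higher and none lower (3.81% and 12.2% of all rows), with a median of 1.15 beside -0.02. They were Esrrb, again the gene sorted on, Nanog, Klf5 and Sox2. Tfap2c and Tead4 took their direction, the simple keratins Krt8 and Krt18 the opposite one. A shared direction does not assign a gene to a lineage. Eomes lay on the side of those keratins, within 2-fold (-0.50 in DP against DN cells). Of 11 primitive endoderm markers 6 were compared. In the Esrrb step Lama1, a laminin gene, was higher and Dab2 lower (1.82% and 1.43% of all rows). In the Tbx3 step none was higher and 4 were lower, Col4a1, Pdgfra, Sparc and Dab2 (0.346% and 6.94% of all rows). Of these 4, Pdgfra is among the 484 rows. Lama1 was at 11.6 FPKM in DP against 7.07 in SP cells, within 2-fold. It was higher in DP than in DN cells, by 1.97, while the same 4 were lower (3.81% and 12.2% of all rows). Of 13 compared fibroblast markers 12 were also lower in the Tbx3 step (6.94% of all rows). The part of the fibroblast markers in the 4 endoderm markers was not tested. The endoderm factor genes Gata4, Sox17 and Foxa2 were below 1 FPKM throughout.

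Likeness of pattern was measured as the root mean square difference of centred log2(FPKM + 1) values over the 5 fractions, among 9742 coding or long noncoding rows with at least 5 FPKM somewhere, for the 4 genes that reach that level themselves. The rows most like Tfap2c were Lrrc34 (0.116), the naive pluripotency factor gene Tfcp2l1 (0.128) and Cpsf4l (0.154). Those most like Tead4 were C030039L03Rik (0.0526), the ephrin receptor gene Epha4 (0.0644) and Zfp59 (0.0706). Those most like Krt18 were the homeobox gene Nkx6-2 (0.146), Cthrc1 (0.152) and the forkhead gene Foxi3 (0.205). Those most like Krt19 were Glipr2 (0.158), Pck2, which encodes mitochondrial PEP carboxykinase (0.217), and Plet1 (0.222), a gene known from trophoblast stem cells that was at 7.24, 5.21 and 7.95 FPKM in the DN, SP and DP fractions, and at 3.47 FPKM in Zscan4-positive and 3.31 in Zscan4-negative cells. Between the members themselves the closest pairs were Eomes with Krt8 (0.321) and Krt8 with Krt18 (0.398), and the most distant was Tfap2c with Krt18 (1.66). Over 5 values such likeness is a description.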

How the data were processed

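RNA of 5 sorted fractions was measured in 10 libraries, made with a kit that, per the labels' protocols, is the NEBNext Ultra RNA kit, which does not mark strand. The submitters' processing notes name build mm10, Cuffdiff 2.2.1, Cufflinks, TopHat2 2.0.14 and bcl2fastq 1.8.4. Neither the annotation nor the library normalization is given in the sources used here. The deposited FPKM values were made by the authors, with both libraries of a fraction merged into 1 value, although the table is titled as counts. Whole reads could not be recovered from low values: the commonest ratio between columns was shared by at most 1.88% of 531 low rows.

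Groups follow the sample titles. Differences are log2(FPKM + 1), first fraction minus second, with a 2-fold size rule and no test, because 1 value exists per fraction; the count test named in advance for per-library counts could not be used. The members and 8 further lists (109 genes) were chosen with earlier results of these data known, and the comparison of the reporter lines was added after values were seen. The text names all 8 genes, up to 4 members of a list past 2-fold per comparison, and the 3 rows most alike in pattern; keratins, relatives and genes given as levels only were chosen after their values were seen. Deposited starts count from 0 and are written from 1. GENCODE M21, on the same assembly, gave strands. It lists a gene on the opposite strand over 397 bases of Tead4, 574 of Eomes and 131 of Krt8, and reads of such partners cannot be told apart without strand. RefSeq promoter windows (GRCm38.p6) exist for 5 of the 8 genes, and Tfap2c, Tead4 and Krt19 have no entry. Alternatives covered pseudocount, filter, 3 scalings and summed rows. The arithmetic of the difference and the 2-fold rule was checked on planted fold changes without noise, which says nothing of spread between libraries. Python 3.11.15, pandas 2.3.3, numpy 2.4.6 and matplotlib 3.10.9 were used.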

Additional observations from a re-analysis of the deposited data

How the results depend on the processing

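The differences of the 6 compared genes in 5 comparisons, 30 in all, were recomputed under 7 alternatives, and 205 of 210 values stayed on the same side of the 2-fold rule with no call reversed. Lifting the filter or summing the rows of a symbol cannot change these values, as each gene has 1 row. Agreement under those alternatives was thus fixed in advance. All 5 changes concern Krt8. In DP against DN cells it moved from -0.98 to -1.46 with a pseudocount of 0.1, -1.19 with 0.5, -1.05 under equal FPKM totals and -1.07 under equal totals outside the 484 shared rows, so that 2 genes in place of 1 were lower under each of these. Both scalings shift the median of all rows in that comparison, by -0.11 and -0.13, and relative to that shift Krt8 was at -0.95 and -0.94. In DP against Zscan4-negative cells Krt8 reached -1.15 with a pseudocount of 0.1, making 1 gene lower in place of none. Krt19 changed sign in DP against DN cells, far inside 2-fold, from 0.10 to -0.01 and -0.03 under the same scalings. Over all rows the counts depend on the pseudocount: with 0.1 they were 428 higher and 469 lower in the Esrrb step, in place of 247 and 195. The corresponding counts were 153 and 1460 in place of 47 and 943 in the Tbx3 step, and 835 and 280 in place of 470 and 119 in the Zscan4 sort. No paired analysis was possible because the columns carry no replicate, and no library could be left out. FPKM without depth gives no counting error.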
